A study of Mus musculus with 4 samples.

Results

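The mitochondrial genome of the mouse contributed 37 of the 50600 genes in the deposited count tables. They were taken as every gene placed on chromosome M, and comprise 13 mRNAs, 22 transfer RNAs (tRNAs) and 2 ribosomal RNAs (rRNAs). Each was counted in 4 libraries of T-helper 2 cells, a class of CD4 T cell known for secreting interleukin 4. The cells were primary cells of strain C57BL/6NJ, differentiated in culture from CD4 T cells, and no treatment, transgene or deletion is named. Sex was not collected, and age and developmental stage are given as unknown. The 4 libraries form 1 group and are called replicates 1 to 4. All carry the same donor identifier, and whether it stands for 1 animal is not given, so a p-value measures only how far these 4 samples lie apart, and that distance may be technical. Every comparison below is therefore within a library, or between replicates.

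Mitochondrial DNA is a compact circle that is transcribed across both strands into long precursor RNAs. Most of the protein and RNA genes, including both rRNAs, read along the strand that the annotation calls plus, copied from the heavy strand, whereas mt-Nd6 and a minority of the tRNAs read along the minus strand, copied from the light strand. Precursors are cut chiefly at the tRNAs that stand between the other genes, and after cutting each RNA is stabilised or degraded at its own rate. The proteins made are subunits of respiratory complexes I, III and IV and of the ATP synthase.

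Library totals ran from 1688658 to 2222583 counts, and 3 counts, the limit that a count of 0 allows, correspond to a CPM (the count scaled to a library total of 1000000) between 1.35 and 1.78. The tables were counted with the strand option set to 1, and the sources used here do not say which strand the library kit marks. Of the 50563 nuclear genes, the 16.2% with an exon of another gene on the opposite strand held 91.9 ± 1.38% of the nuclear counts (SD, n = 4). Whether a count stands for RNA of a gene's own strand or of the opposite strand was not tested. The words "plus" and "minus" below name the annotated strand of the gene that received the count. All 6 T cell markers had counts in every library, with summed levels of 94.7, 99.1, 60.3 and 125 CPM in replicates 1 to 4. Of these only Cd3e has an exon opposite, of Gm48719 over 135 bases. Of 6 Th2 markers, Il5 and Il13 were at 0 in all libraries. Ptgdr2 was highest at 103 ± 16.1 CPM, and it has an exon of Ccdc86 opposite over 1031 bases. Ccr4 and Il4, which have no exon opposite, were at 22.7 and 6.19 CPM. None of 5 natural killer and cytotoxic markers had a count, and the B cell, erythroid and mast cell or basophil lists summed to at most 19.3 CPM. Cd79a was the only B cell marker with counts, at 8.01 ± 2.16 CPM, and has no exon opposite. Alas2 was the only erythroid one, at 14.2 ± 5.12 CPM, with an exon of Apex2 opposite over 311 bases. Single T cell markers ranged from 7.37 CPM (Trbc2) to 39.4 CPM (Cd4), so these levels were not far below them. Of 4 myeloid markers only Csf1r was detected, at 516 ± 52.0 CPM, and it has an exon of Hmgxb3 opposite over 871 bases. A single nuclear gene, CT010467.1, took 1.29, 5.05, 9.40 and 1.62% of the counts of replicates 1 to 4. In bulk samples of this kind, fewer cells of a type and less RNA per cell cannot be told apart.

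The 37 genes together held 1.91% of the counts of replicate 1 (95% Wilson interval 1.89 to 1.93), 1.87% of replicate 2 (1.85 to 1.89), 1.48% of replicate 3 (1.47 to 1.499) and 1.89% of replicate 4 (1.87 to 1.91). Replicate 3 was the lowest and the other 3 lay close together. The intervals cover counting error only. A count was found for 24 of the 37 genes in at least 1 library and for 21 in all 4, while 13 genes had no count anywhere. Over the 4 libraries 22 genes had more than 3 counts.

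**Figure D1:**
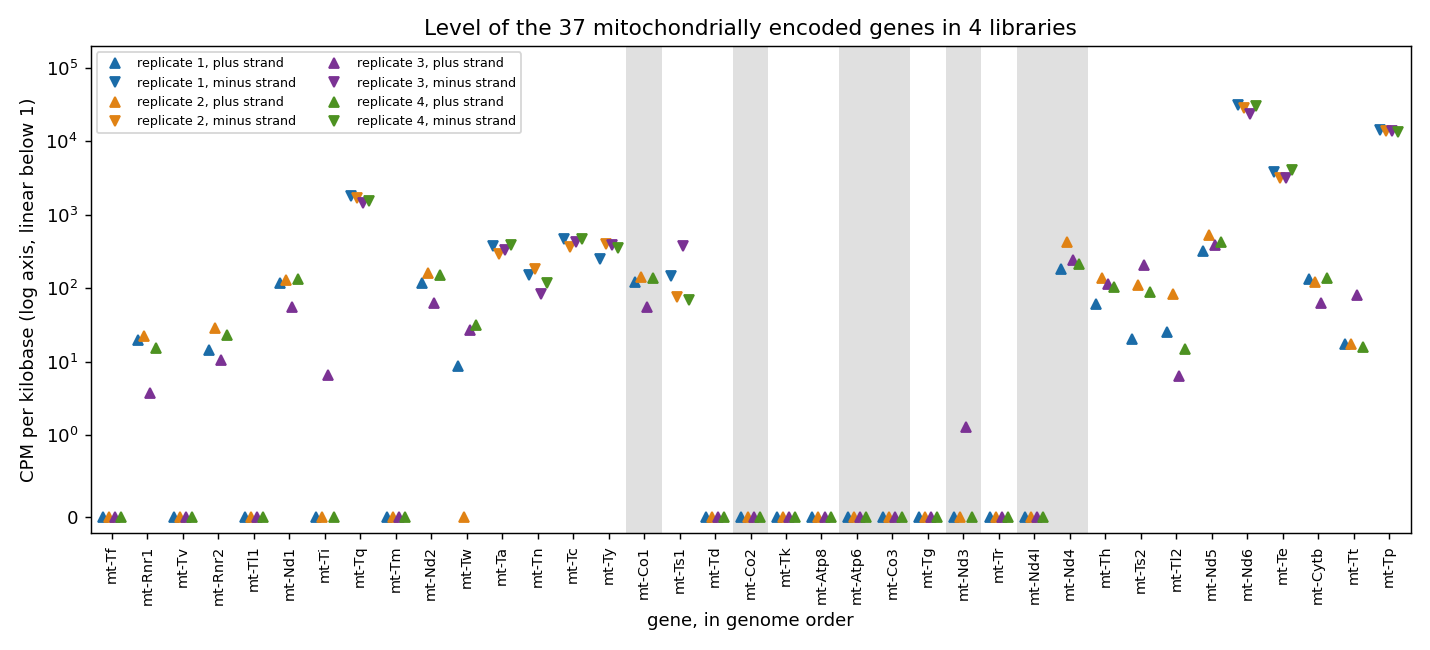
Level of each of the 37 mitochondrial genes in genome order, in CPM per kilobase of gene on a log axis that turns linear below 1, with 1 symbol per library (upward for plus-strand genes, downward for minus-strand genes). Grey columns mark the 7 mRNAs with an annotated nuclear copy. The 9 minus-strand genes all have counts, and a run of genes from mt-Td to mt-Nd4l lies at 0 apart from 1 count for mt-Nd3.

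The 9 minus-strand genes, which cover 1068 bases, held 119777 counts, and the 28 plus-strand genes, which cover 14373 bases, held 12841. The minus strand accounted for 92.3, 87.7, 90.8 and 90.5% of the mitochondrial counts in replicates 1 to 4, a mean of 90.3 ± 1.93% (SD, n = 4). All 9 minus-strand genes had counts in every library, compared with 12 of the 28 plus-strand genes, and all 13 genes without a count were plus-strand genes. Whether the counts of minus-strand genes come from RNA of that strand or of the opposite one was not tested.

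Among mRNAs the contrast between strands rests on mt-Nd6 (ENSMUSG00000064368.1, build mm10, chrM:13552-14070, minus strand), which encodes a membrane subunit of complex I. It had 27391, 25582, 26908 and 29527 counts in replicates 1 to 4, or 82.5 ± 1.89% of all mitochondrial counts (SD, n = 4). By level per kilobase it was the first of all 50600 genes, at 28432 ± 3537 CPM per kilobase, and by CPM the third. The 12 plus-strand mRNAs summed to 2396, 3770, 2940 and 3261 counts. On the log2 scale, counts per kilobase of mt-Nd6 exceeded those of the summed plus-strand mRNAs by 7.91, 7.15, 7.58 and 7.57, a mean of 7.55 ± 0.31 (SD, n = 4) and thus 188-fold. The direction was the same in 4 of 4 libraries. In an exact two-sided sign-flip permutation test, 2 of the 16 sign patterns gave a mean this far from 0, the fewest that 4 libraries allow, so the test cannot pass 0.05.

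The gene that follows mt-Nd6 on the circle in the plus direction is mt-Te, and the gene before it is mt-Nd5, another complex I subunit and the plus-strand mRNA with the most counts. The 3′ ends of mt-Nd5 and mt-Nd6 face each other and share 14 bases. Their last 40 bases are shown because mRNAs of opposite strands overlap at this join. The sequences are those of GENCODE M21 transcripts on the same build, 5′ to 3′, and the capitals mark the bases that both genes cover on opposite strands.
mt-Nd5, chrM:13526-13565, plus strand: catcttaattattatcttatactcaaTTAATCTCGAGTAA
mt-Nd6, chrM:13552-13591, minus strand: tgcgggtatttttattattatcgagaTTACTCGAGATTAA
On either side of this overlap the counts differed widely. mt-Nd5 had 993, 1646, 1583 and 1462 counts in replicates 1 to 4, with the lowest in replicate 1, and every library had more for mt-Nd6. Per kilobase, mt-Nd6 lay above mt-Nd5 by 6.60, 5.77, 5.90 and 6.15 on the log2 scale (mean 6.10 ± 0.36, SD, n = 4). The 2 mRNAs also differ in composition: on its own strand mt-Nd6 holds 28.1% G and 5.97% C, while the 12 plus-strand mRNAs hold 5.88 to 16.1% G (median 11.02) and 22.1 to 30.0% C (median 26.0).

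**Figure D2:**
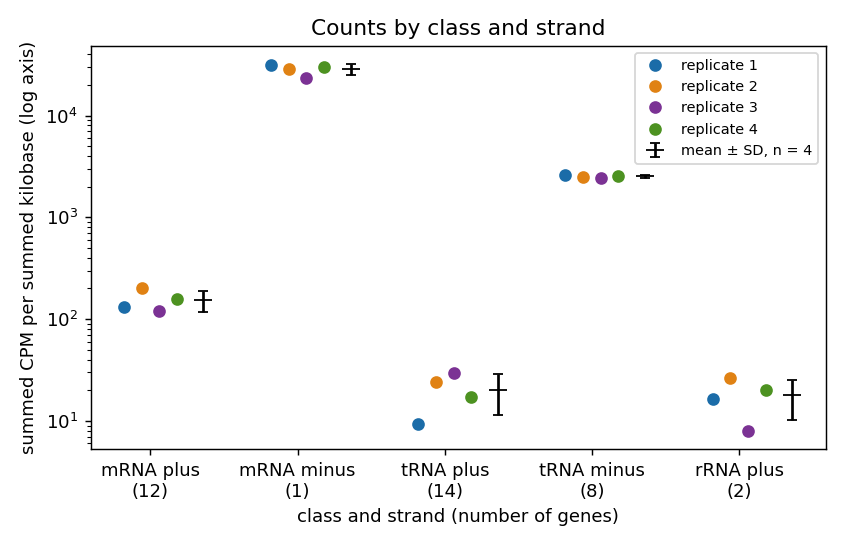
Summed CPM per summed kilobase by RNA class and annotated strand, on a log axis, with 1 point per library and the mean ± SD (n = 4) at the right of each group. The minus-strand mRNA and the minus-strand tRNAs lie above the plus-strand genes of their class in all 4 libraries, and both rRNAs lie near the plus-strand tRNAs.

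The tRNAs showed the same order. The 8 minus-strand tRNA genes summed to 2427, 2313, 3003 and 2626 counts in replicates 1 to 4, and the 14 plus-strand ones to 15, 39, 62 and 31. Every library had more on the minus strand. The log2 difference per kilobase was 8.13, 6.68, 6.39 and 7.20, a mean of 7.10 ± 0.76 (SD, n = 4), and again 2 of the 16 sign patterns of the exact two-sided permutation test reached it. The minus-strand tRNAs summed to 1385 ± 40.02 CPM (SD, n = 4), a coefficient of variation of 2.89% that was 5.31% under TMM scaling. mt-Tp gave 6933 of their 10369 counts, and without it the values were 7.15 and 3.35%. The plus-strand ones ranged from 8.88 CPM in replicate 1 to 27.9 CPM in replicate 3.

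Within the minus-strand tRNAs the levels covered a wide range. mt-Tp, which carries proline, was highest at 13817 ± 283 CPM per kilobase and by that measure ranked 4 among all 50600 genes. By CPM, without division by its length of 67 bases, it ranked 207. mt-Te, for glutamate, followed at 3584 ± 472 and mt-Tq, for glutamine, at 1623 ± 158 CPM per kilobase (SD, n = 4). These 3 levels were separated by more than their spread. mt-Tc (cysteine) at 434 ± 50.7, mt-Ta (alanine) at 348 ± 47.0 and mt-Ty (tyrosine) at 347 ± 69.2 CPM per kilobase formed a lower tier, in which mt-Ta and mt-Ty did not differ beyond their spread. mt-Ts1, one of the pair of serine tRNAs, at 167 ± 145 and mt-Tn (asparagine) at 134 ± 42.4 CPM per kilobase were lowest and were not separated by their spread. mt-Ts1 had 17, 9, 58 and 9 counts, so that its mean depends on replicate 3.

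Among the 14 plus-strand tRNAs, 8 had no count in any library: mt-Tf, mt-Tv, mt-Tl1, mt-Tm, mt-Td, mt-Tk, mt-Tg and mt-Tr. Another, mt-Ti for isoleucine, had 1 count, in replicate 3. mt-Th, for histidine, had 7, 16, 17 and 13 counts, and mt-Ts2, the other serine tRNA, had 2, 11, 27 and 10. These 2 stand side by side between mt-Nd4 and mt-Nd5, the plus-strand mRNAs with the most counts. The third tRNA of that cluster, mt-Tl2 for leucine, had 3, 10, 1 and 2 counts, mt-Tw for tryptophan had 1, 0, 4 and 4, and mt-Tt for threonine had 2, 2, 12 and 2.

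The difference between strands was large even where genes touch. The sequences of 5 tRNAs at or near such joins follow, from the same annotation, with the anticodon in capitals and in DNA letters. mt-Tt and mt-Tp abut with no base between them, and mt-Tq and mt-Tm stand 2 bases apart. mt-Te abuts mt-Nd6 on its own strand and stands 5 bases from mt-Cytb on the other.
mt-Tt, chrM:15289-15355, plus strand: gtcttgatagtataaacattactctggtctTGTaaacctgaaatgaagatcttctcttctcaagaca
mt-Tp, chrM:15356-15422, minus strand: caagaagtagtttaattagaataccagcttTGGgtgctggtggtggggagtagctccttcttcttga
mt-Tq, chrM:3772-3842, minus strand: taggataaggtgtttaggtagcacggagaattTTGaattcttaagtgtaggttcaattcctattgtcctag
mt-Tm, chrM:3845-3913, plus strand: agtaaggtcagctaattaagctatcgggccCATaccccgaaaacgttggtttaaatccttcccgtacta
mt-Te, chrM:14071-14139, minus strand: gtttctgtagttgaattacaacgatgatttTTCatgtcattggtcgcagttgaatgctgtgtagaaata
mt-Tp had 1606, 1581, 2041 and 1705 counts, and mt-Tt beside it had 18 counts over all libraries. With 0.5 counts added, mt-Tp lay above mt-Tt by 8.85 ± 1.00 on the log2 scale per kilobase (SD, n = 4), and by a mean of 8.67 with counts under 3 read as 3. Both genes are 67 bases long, so length plays no part in that pair. mt-Tq had 215, 207, 228 and 206 counts while mt-Tm had none. With each 0 read as up to 3 counts in a library, mt-Tq lay above mt-Tm by at least 6.06 on the log2 scale per kilobase in every library. On the other flank of mt-Tq, mt-Ti had 0, 0, 1 and 0 counts. On their own strands the minus-strand tRNAs held more G (median 23.0%) than the plus-strand tRNAs (median 15.7%).

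Across the circle there were 36 neighbouring pairs, and 27 had more than 3 counts in at least 1 of the genes. With 0.5 counts added, the same gene was higher per kilobase in all 4 libraries in 22 of these 27. In 9 of the 27 pairs 1 gene had no count in any library, so that the added value sets the size of the difference and can set its order. With counts under 3 read as 3, a setting chosen after the data were seen, 18 of the 27 held their order, and the 4 that did not each pair an rRNA with a tRNA at 0 (mt-Tf, mt-Tv or mt-Tl1). Among the 9 pairs that join opposite strands, the minus-strand gene was higher per kilobase in every library in 8 under both settings. Their median log2 difference, regardless of sign, was 5.14 with 0.5 counts added and 5.02 with counts under 3 read as 3. The 18 usable pairs on the same strand had medians of 2.05 and 1.61, and 14 and 10 held their order. Per kilobase, the exception among opposite pairs was mt-Co1 with mt-Ts1. Its log2 difference from mt-Co1 to mt-Ts1 was 0.30, -0.83, 2.79 and -0.93 in replicates 1 to 4, so that mt-Ts1 was higher in replicates 1 and 3 only. By counts without division by length, mt-Co1 with 317, 378, 189 and 406 was above both of its minus-strand neighbours in every library. mt-Ts1 had 17, 9, 58 and 9 counts and mt-Ty 28, 46, 57 and 45. In the remaining opposite pairs the minus-strand gene was higher by counts as well. The other pairs without a fixed order per kilobase were mt-Tc with mt-Ty, mt-Th with mt-Ts2, mt-Ts2 with mt-Tl2 and mt-Cytb with mt-Tt.

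Minus-strand neighbours also differed from each other. mt-Te and mt-Nd6 abut on the minus strand, yet mt-Te lay lower by -3.03, -3.19, -2.86 and -2.87 on the log2 scale per kilobase (mean -2.99 ± 0.15, SD, n = 4). In the cluster of 4 adjacent minus-strand tRNAs, mt-Ta had 44, 34, 51 and 51 counts, mt-Tn 18, 22, 13 and 16, mt-Tc 53, 41, 63 and 58, and mt-Ty 28, 46, 57 and 45. mt-Tn was thus below both of its neighbours in every library. mt-Cytb, the complex III subunit that lies 5 bases from mt-Te on the plus strand, stood at -5.02 ± 0.44 relative to mt-Te on the log2 scale.

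A tRNA gene can be described by whether a gene on the same strand lies within 3 bases of each end. The 8 plus-strand tRNAs with a same-strand gene on both sides had 119 counts in all (0 to 53 a gene), and the 6 with such a gene on 1 side had 28 (0 to 18). On the minus strand the 3 tRNAs with none (mt-Tq, mt-Ts1 and mt-Tp) had 7882 counts (93 to 6933), and the 5 with such a gene on 1 side had 2487 (69 to 1847). Under the recorded counting options a fragment that overlaps more than 1 gene on the counted strand is assigned to none. How far this bears on the tRNA counts was not tested.

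The plus-strand mRNAs fell into 6 with counts in all libraries and 6 with at most 1 count. mt-Nd5 was at 417 ± 86.3 CPM per kilobase and mt-Nd4, also of complex I, at 267 ± 111 (SD, n = 4). mt-Nd4 had 0.429, 0.614, 0.469 and 0.380 times the counts of mt-Nd5 in replicates 1 to 4. Lower and within 1 SD of each other were mt-Nd2 at 123 ± 44.6, mt-Co1 (the catalytic subunit of complex IV) at 115 ± 41.1, mt-Cytb at 115 ± 34.9 and mt-Nd1 at 110 ± 36.5 CPM per kilobase (SD, n = 4). The rRNAs were lower still. mt-Rnr2, the large-subunit rRNA, had 39, 77, 37 and 69 counts and mt-Rnr1, the small-subunit rRNA, had 32, 37, 8 and 28. That is 19.2 ± 8.16 and 15.5 ± 8.34 CPM per kilobase (SD, n = 4), below all 6 of the plus-strand mRNAs just named.

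The mRNAs at or near 0 were mt-Co2 and mt-Co3 of complex IV, mt-Atp8 and mt-Atp6 of the ATP synthase, and mt-Nd3 and mt-Nd4l of complex I. They follow each other on the circle, together with the uncounted tRNAs mt-Td, mt-Tk, mt-Tg and mt-Tr. To look for near-identical genes elsewhere, the transcripts of the annotation were aligned to one another, and a copy was taken as 50 or more bases at 99% identity or more. In all, 7 mitochondrial mRNAs had such a copy, and every copy was an annotated gene on the minus strand of chromosome 1, between positions 24611535 and 24616197 (mm10). The copies keep the members' order, and their spacing matches that on the circle except for 1 base between the copies of mt-Nd3 and mt-Nd4l. The copies covered 99.6% of mt-Co2 (Gm28661), 99.6% of mt-Atp6 (Gm10925), 99.9% of mt-Co3 (Gm28437), 99.1% of mt-Nd3 (Gm28438) and 98.99% of mt-Nd4l (Gm10222). For mt-Nd4 the first 876 bases, 63.6% of the gene, matched Gm28439 at 100%, and for mt-Co1 the last 483 bases, 31.3%, matched Gm29216 at 99.8%.

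**Figure D3:**
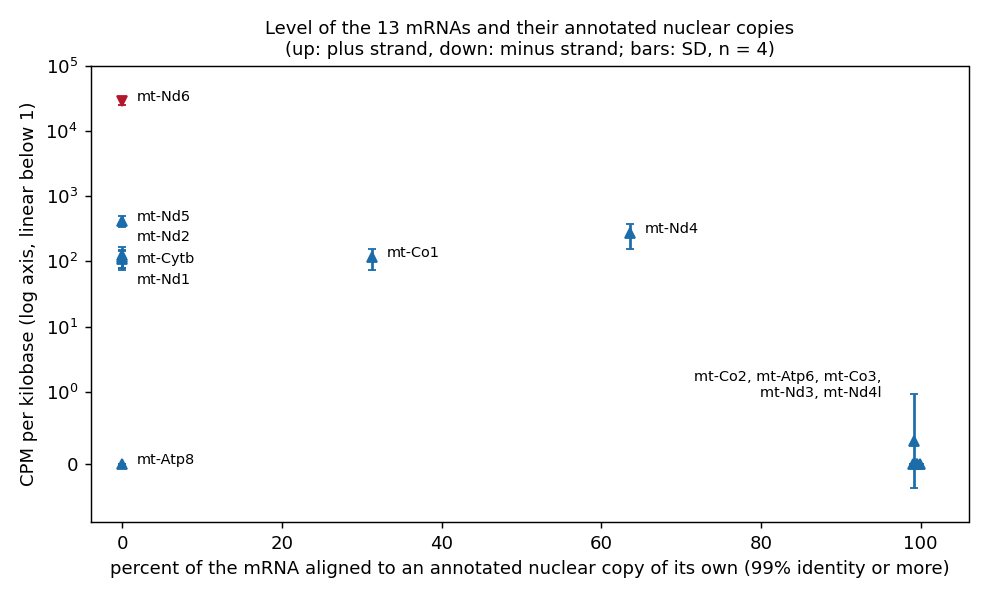
Mean level of each of the 13 mitochondrial mRNAs (CPM per kilobase, log axis that turns linear below 1, bars showing SD over 4 libraries) against the percent of its length aligned to an annotated nuclear copy of its own. The 5 mRNAs copied over more than 90% of their length lie at or near 0, mt-Co1 and mt-Nd4 are copied in part, and mt-Atp8, drawn at 0 percent, has 43 bases inside the copy of mt-Atp6.

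All 5 mRNAs with more than 90% of their bases in a copy had 0 or 1 count. Of the other 8, 7 had counts in every library, 2 of them copied in part. The remaining one, mt-Atp8, had no count and no copy of 50 bases of its own, but its last 43 bases (21.1% of 204) overlap mt-Atp6 and so lie inside Gm10925. It stands between mt-Co2 and mt-Atp6 on the circle. If the deposited length is replaced by the length outside the copies, mt-Nd4 rises to 734 ± 305 CPM per kilobase and mt-Co1 to 167 ± 59.7 (SD, n = 4). The mean of mt-Nd4 then stands above that of mt-Nd5, so that the order of these 2 genes turns with the length used. This length was chosen after the data were seen. A fragment that aligns equally well in several places is not counted under the recorded options, and whether that set the zeros was not tested.

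Of the copies, Gm28438 alone held more than 1 count. It had 30, 44, 113 and 30 counts in replicates 1 to 4, highest in replicate 3, while mt-Nd3 had 0, 0, 1 and 0. That is 27.6 ± 16.1 CPM for the copy (SD, n = 4), and its spread between libraries was not called (edgeR adjusted p = 0.15). The pair is shown over its first 60 bases because a single base tells it apart. The sequences are from GENCODE M21 transcripts and the capital marks the differing base, T3C, counted from 1 at the 5′ end of mt-Nd3 (the copy has the second letter).
mt-Nd3, chrM:9459-9518, plus strand: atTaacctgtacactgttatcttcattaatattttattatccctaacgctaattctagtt
Gm28438, chr1:24613060-24613119, minus strand: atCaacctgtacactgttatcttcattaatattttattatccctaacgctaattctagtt
The copy of mt-Co1 also differs at 1 base, A1066T counted from the 5′ end of mt-Co1, and the copy Gm29216 had no count. The reference is of strain C57BL/6J and the libraries of C57BL/6NJ, and which base the mitochondrial DNA of these cells carries was not tested. More distant copies, with 95 to 99% identity, were annotated for mt-Co1, mt-Co2, mt-Nd2 and mt-Nd5, and held 0, 0, 0 and 1 count in all.

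Spread between replicates was compared with what abundance predicts, using edgeR's quasi-likelihood dispersion with Benjamini-Hochberg adjustment over 4918 tested genes. Of these 22 genes passed at 0.05, which is 0.447% of those tested. Of the 37 mitochondrial genes 15 passed the count filter, and 2 of them, mt-Nd4 and mt-Co1, were called. The filter asks for a minimum count in every library, so the other 22 were not tested by this route.

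mt-Nd4 (ENSMUSG00000064363.1, chrM:10167-11544) had 426, 1010, 743 and 556 counts, or 252, 592, 334 and 296 CPM. Replicate 2 stood above the other 3. Its dispersion was 17.3 times the prior (edgeR adjusted p = 0.00019), rank 8 of the genes tested. Without replicate 2 the call was lost, with an edgeR adjusted p of 0.764, and over all alternatives the adjusted p ranged from 4e-06 to 0.764.

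mt-Co1 (chrM:5328-6872) had 317, 378, 189 and 406 counts, or 188, 222, 85.04 and 216 CPM. Replicate 3 was the low one. Its dispersion was 9.37 times the prior (edgeR adjusted p = 0.0249). The call was lost without replicate 3 (adjusted p = 0.985), where the ratio fell to 1.06. It was also lost with no smaller a ratio without replicate 4 (ratio 16.3, adjusted p = 0.0577), when CT010467.1 was left out of the table (10.4, 0.0619) and with a prior that is not robust (10.05, 0.116). Over all alternatives the adjusted p ranged from 0.0103 to 0.985. Scaled by library totals alone, neither mt-Nd4 (adjusted p = 0.156) nor mt-Co1 (0.311) was called, although their ratios to the prior, 20.9 and 14.2, were no smaller.

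The ratio was also read by strand. The 7 plus-strand genes (mt-Rnr2, mt-Nd1, mt-Nd2, mt-Co1, mt-Nd4, mt-Nd5 and mt-Cytb) had a median dispersion of 5.96 times the prior, from 3.18 to 17.3, and an unadjusted p below 0.05 in all 7. The 8 minus-strand genes had a median of 0.552, from 0.150 to 1.51, and none had an unadjusted p below 0.05. Over all 4918 genes the median was 0.795, and 5.71% had an unadjusted p below 0.05. The plus-strand values rest largely on replicate 3. Without it the median of the 7 was 2.33 and 3 had an unadjusted p below 0.05 (mt-Rnr2, mt-Nd4 and mt-Nd5), with mt-Nd1 at 0.306, mt-Nd2 at 2.33, mt-Co1 at 1.06 and mt-Cytb at 0.0299 times the prior. The division by strand also depends on the scaling. By library totals mt-Nd6 was at 4.92 times the prior, with an unadjusted p below 0.05, and mt-Rnr2 at 3.35, with an unadjusted p above it. With limma mt-Nd6 was at 9.45, also with an unadjusted p below 0.05, and thus above mt-Nd5 at 7.72. The difference between strands was not itself tested.

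**Figure D4:**
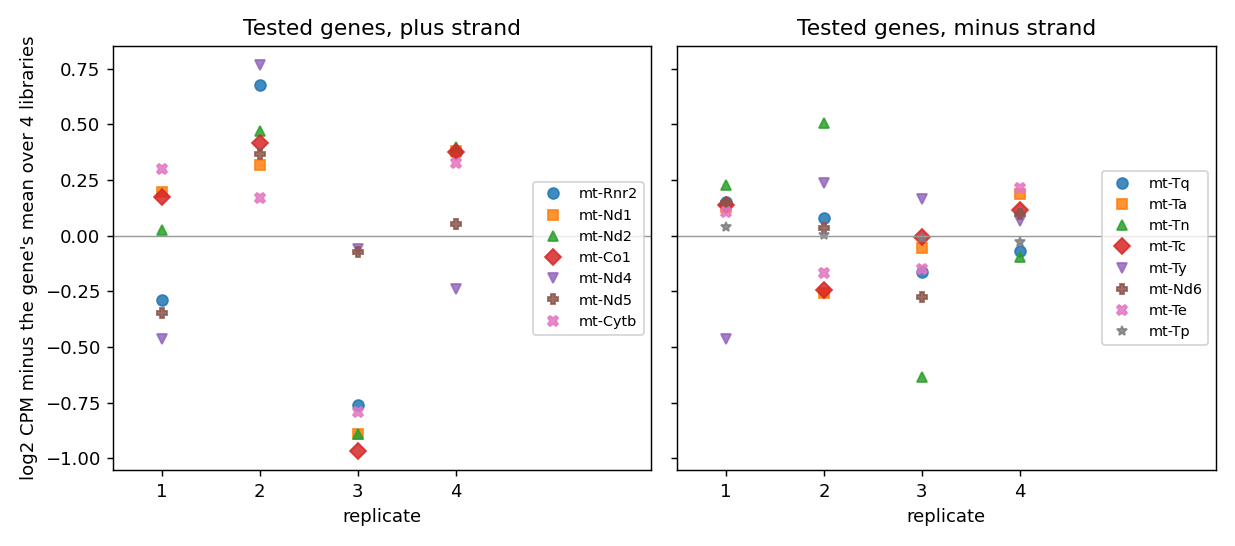
For the 15 tested mitochondrial genes, log2 CPM in each library minus the gene's mean over the 4 libraries, with plus-strand genes on the left and minus-strand genes on the right. In replicate 3 the genes mt-Rnr2, mt-Nd1, mt-Nd2, mt-Co1 and mt-Cytb lie between -0.97 and -0.76, while mt-Nd4 and mt-Nd5 lie near 0 there, and mt-Tp lies within 0.04 of 0 in every library.

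The plus-strand genes did not all vary in the same way. mt-Nd1 had 192, 211, 119 and 243 counts, mt-Nd2 207, 284, 144 and 298, and mt-Cytb 261, 241, 161 and 296. Like mt-Co1 and both rRNAs they were lowest in replicate 3, the deepest library, so that 6 of the 8 plus-strand mRNAs and rRNAs over the floor were lowest there. The same 6 were lowest there under TMM scaling and with CT010467.1 left out of the totals. Of the 9 minus-strand genes 3 were lowest in replicate 3 by library totals and 2 by TMM. mt-Nd4 and mt-Nd5 were instead lowest in replicate 1 and highest in replicate 2.

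Grouped after the values were seen, mt-Nd1, mt-Nd2, mt-Co1 and mt-Cytb summed to 977, 1114, 613 and 1243 counts, and mt-Nd4 with mt-Nd5 to 1419, 2656, 2326 and 2018. The second sum was 1.45, 2.38, 3.79 and 1.62 times the first in replicates 1 to 4. This within-library ratio needs no scaling between libraries, and it was highest in replicate 3, followed by replicate 2. The share of CT010467.1 was also highest in replicate 3 and next in replicate 2, and the summed T cell markers were lowest in replicate 3. Their part in the ratio was not tested.

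mt-Nd6 had 16221, 15003, 12107 and 15695 CPM. It was lowest in replicate 3 as well, but the gap was smaller than for the group of 4 mRNAs, which had 579, 653, 276 and 661 CPM. Under TMM scaling mt-Nd6 was at 15717, 15365, 13184 and 14524. The coefficient of variation of mt-Nd6 was 12.4% by library totals and 7.66% by TMM, and that of mt-Co1 was 35.7% and 33.2%.

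mt-Tp was the steadiest gene by library totals, with 951, 927, 918 and 906 CPM in replicates 1 to 4. Its coefficient of variation was 2.05%, below the 2.40% that counting alone gives at this depth, and no library stood apart. Under TMM it was 7.28%, so this steadiness depends on the scaling. The 13 plus-strand genes over the floor had coefficients of variation from 20.7 to 107% (median 41.5) by library totals, and the 9 minus-strand genes from 2.05 to 86.4% (median 13.2), with mt-Ts1 the most variable of the latter. By TMM the medians were 41.9 and 9.80%. These values include counting error, which is larger for genes with few counts.

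Across the 22 genes with more than 3 counts, the pattern of levels was similar between libraries, given here as a description. The libraries share the genes' lengths and sequences. Replicates 2 and 3 were least alike, with a Pearson's r of log2(CPM + 1) of 0.936 and a Spearman's rho of 0.903. The highest r was 0.988, between replicates 1 and 4, and the highest rho 0.986, between replicates 2 and 4.

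The nuclear genes that copy, transcribe, process, modify or degrade mitochondrial RNA were read beside these levels. Of 40 listed genes 39 were matched by symbol, 38 had a count and 29 had counts in all libraries. Of these 12 passed the filter of the test of spread, and 0 were called, with the 0.447% of all genes above as the background. The median level of the 39 was 4.81 CPM, being 12.7 CPM for the 17 with an exon of another gene opposite and 3.59 CPM for the 22 without.

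The highest of them was Slirp, which binds and stabilises mitochondrial mRNAs with Lrpprc. It had 3428, 3605, 4047 and 3585 counts, or 1968 ± 130 CPM (SD, n = 4), and has an exon of Snw1 opposite over 945 bases. Fastk, whose mitochondrial form is needed for mt-Nd6 mRNA, was at 389 ± 10.4 CPM (Slc4a2 opposite). Mgme1, an exonuclease of mitochondrial DNA maintenance, was at 312 ± 67.9 CPM (Snx5 opposite). Polg, the catalytic subunit of the mitochondrial DNA polymerase, was at 296 ± 38.6 CPM (Fanci opposite), and the primase-polymerase Primpol at 173 ± 13.3 CPM (Cenpu opposite). Mrm1, a methyltransferase of the large-subunit rRNA, was at 72.9 ± 8.17 CPM (SD, n = 4) and alone among these 6 had no exon opposite.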

How the data were processed

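The authors deposited, for each of 4 libraries, a table of raw counts per gene, made with featureCounts 1.4.6-p4 on mm10 and GENCODE M13, per the file headers. Counting used strand option 1 and fragments whose ends both aligned, over the exons of a gene, per the same headers, which also name 16 hours, a time absent from the labels. They hold no option that counts fragments aligned in several places or assigns 1 fragment to several genes, and such fragments were not counted. The aligner was not given in the sources used here. Labels call the assay total RNA, while the linked protocol's name refers to poly(A) RNA.

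Members are the genes on chromosome M. The members and lists were chosen with earlier results of these data known. Symbols and transcript sequences came from GENCODE M21, which matched 99.6% of gene identifiers. Release M13 and a genome sequence were not used here, so copies were sought with blastn 2.17.0 among annotated transcripts (identity 99% or more over 50 bases). Exons on opposite strands were intersected with bedtools. CPM is the count scaled to a library total of 1000000. Spread was tested with edgeR 4.0.16 (R 4.3.3) in a robust quasi-likelihood fit with an intercept alone, after filterByExpr and TMM. The statistic was the ratio of a gene's quasi-dispersion to the trended prior, on 3 residual degrees of freedom, and large ratios were tested. The test was checked on data simulated from the libraries' means. Within-library log2 differences were tested by listing all sign patterns, and Wilson intervals were computed with scipy 1.17.1. DESeq2 1.42.0 size factors and limma 3.58.1 served as alternatives, beside library totals, other filters, a prior that is not robust and leaving out each replicate. All members could be named, as could the 6 highest genes of the mitochondrial expression list, all copies, and marker examples. CT010467.1 was chosen after its values were seen.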

Additional observations from a re-analysis of the deposited data

Results flagged for a closer look

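Among 33 sets of 4 library values examined, in 2 a single library lay far from the others, with a gap to its nearest neighbour above Dixon's 95% critical share of the whole range. Chance gives about 1 in 20 such sets. mt-Tt was at 5.40 CPM in replicate 3 and at most 1.18 CPM elsewhere, a gap of 0.972 of the range, on 12 counts against 2 in each other library. The summed level of all 37 mitochondrial genes was 14829 CPM in replicate 3 and at least 18661 CPM elsewhere, a gap of 0.891 of the range. Both sets were scaled by library totals, and CT010467.1 held 9.40% of the total of replicate 3. The TMM factor of that library was 0.918, and whether either gap holds under TMM scaling was not tested.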

How the results depend on the processing

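The direction of the strand difference held under all alternatives run, at 3.16 to 11.5 on the log2 scale for mRNAs and 6.31 to 8.19 for tRNAs, and 18 to 24 neighbouring pairs kept 1 order (22 as reported). The mitochondrial share, 1.79% of counts, was 0.312% without mt-Nd6 and 7.40% as a share of TPM. The count of genes called for spread, 22, was 3 by library totals, 56 without a filter, 44 with a mean count filter, 1 with limma, 9 with a prior that is not robust and 14 without CT010467.1; leaving out 1 replicate gave 11 to 21, the lowest without replicate 4. The 2 mitochondrial calls became 0 by library totals and 0 with limma (242 and 232 of all genes had an unadjusted p below 0.05), 1 with a prior that is not robust and 1 without CT010467.1, and 1 to 2 when a replicate was left out. With no filter or a mean count filter, mt-Ts1 was called as well (adjusted p = 0.0243 and 0.0430). The cause was not tested. Leaving out CT010467.1, reading counts under 3 as 3 and restricting mRNAs to those without an annotated copy were chosen after seeing the data. Leaving out tRNAs with a near-identical copy was not run, since no genome sequence was used. No paired analysis was possible because there is 1 group. Depth limits genes at or below 3 counts.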
